A study of Homo sapiens with 118 samples.

Results

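Inflammatory chemokines were followed in differentiated HepaRG cells exposed to 8 histone deacetylase (HDAC) inhibitors at 5 concentrations each. The set held 10 genes, namely CXCL1, CXCL2, CXCL3, CXCL5, CXCL6, CXCL8, CXCL10, CCL2, CCL15 and CCL20, and its members were all rows of the count table whose gene symbol was 1 of these names. This gave 11 of 22069 rows, since CXCL2 was measured by 2 detector probes and every other gene by 1. A row is called a feature here and is named by its symbol and probe number, as deposited. HepaRG is an established human liver cell line that, once differentiated, holds hepatocyte-like and biliary-like cells. The cells were exposed for 72 h, with the chemical renewed every day, and lysates were profiled with the TempO-Seq whole transcriptome panel, in which pairs of probes that lie side by side on a transcript are ligated, amplified and sequenced. Concentrations are named C1 (lowest) to C5 (highest). From C1 to C5, the labelled concentrations ran 0.041722 to 0.86 µM for apicidin, 0.177222 to 3.9 µM for mocetinostat, 0.001468 to 0.084 µM for panobinostat and 4.94 to 94.5 µM for scriptaid. They ran 1.14333 to 44 µM for tacedinaline, 0.018811 to 1.5237 µM for trichostatin A and 0.404778 to 23.5 µM for vorinostat. The labels of valproic acid ran 100.478 to 3038 µM, which is 1000 times the number in the treatment protocol, so the unit for this chemical is uncertain. No concentration was shared between chemicals. The 118 libraries formed 40 groups, of which 38 had 3 libraries and 2 (panobinostat C3 and trichostatin A C4) had 2. Replicates 1, 2 and 3 came from 3 batches of HepaRG cells. Solvent-control libraries were not used here, so C1 of the same chemical was the reference, and a response already complete at C1 could not be seen.

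Chemokines are small secreted proteins that guide leukocytes along a gradient. CXCL1, CXCL2, CXCL3, CXCL5, CXCL6 and CXCL8 (interleukin-8) act on CXCR1 or CXCR2 and attract mainly neutrophils. CXCL10 is induced by interferons and attracts activated T cells through CXCR3, CCL2 attracts monocytes through CCR2, CCL15 acts on CCR1, and CCL20 attracts CCR6-bearing lymphocytes and dendritic cells. Liver parenchymal cells make several of these chemokines when interleukin-1, tumour necrosis factor or microbial products activate the transcription factor NF-kappaB, which binds kappaB sites in the promoters. Many of the transcripts are short-lived. HDAC inhibitors raise the acetylation of histones and of many other proteins, NF-kappaB subunits among them.

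Library totals lay between 1061359 and 5250260 counts. The lowest totals were those of vorinostat C5. Levels are counts per 1000000 counts of the TMM-adjusted library (CPM), and each level is that of 1 probe, so levels of different features are not set against each other. Libraries carried the hepatocyte markers that define the cells, with albumin counts above 0 in all 118. The summed level of 11 hepatocyte marker features was 12899 to 65158 CPM at C1 and 3004 to 45540.1 CPM at C5, and 72 of 88 results for them fell at C5 while 0 rose. This fall went along with the chemokine changes described here, and its part in them was not tested. In bulk lysates, fewer cells of a type and less RNA per cell cannot be told apart. Of 11 macrophage features, 8 averaged under 1 count per library and PTPRC, the pan-leukocyte marker CD45, was at 0 in all libraries, but CD68 averaged 125 counts and CD14 18.9. The macrophage list summed to 25.0 to 121 CPM at C1 and 15.2 to 54.2 CPM at C5, with 0 of 17 results rising and 3 falling. Of 6 T or NK cell features, 4 averaged under 1 count, whereas CD3D averaged 29.4, and the list summed to 3.31 to 37.6 CPM at C1 and 1.47 to 28.7 CPM at C5, with 0 of 8 results rising and 2 falling. All 6 neutrophil features averaged under 1 count, and none passed the filter on low counts. Of 40 results for cholangiocyte markers, 11 rose and 1 fell at C5, with summed levels of 66.4 to 171 CPM at C1 and 66.4 to 227 CPM at C5. Of 10 cholangiocyte features, 4 were never tested. With apicidin and mocetinostat the rises were those of SPP1 and SOX9, while neither KRT19 probe rose or fell. With tacedinaline 3 of 5 features tested rose, and the fall was that of MUC1. These 5 were SPP1, SOX9, MUC1 and the KRT19 probes, so a KRT19 probe was among the rises. Of 66 results for stellate or mesenchymal markers, 8 rose and 27 fell. Over all features tested, 11.6% of results rose and 13.4% fell at C5. A library that stood apart was replicate 3 of trichostatin A C1, in which the hepatocyte markers summed to 12899 CPM against at most 54389.8 CPM in the other libraries of that group. Results for trichostatin A are therefore given with and without it. Replicate 3 of scriptaid C4 had a TMM factor of 0.708, against 1.12 and 1.10 in the other libraries of its group. That library was kept in the main model and is part of every scriptaid result at C4, from C4 to C5 and over all 5 concentrations. No fit left out this library alone.

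Of the 10 genes, 7 lie on chromosome 4. There, CXCL8, CXCL6, CXCL1, CXCL5, CXCL3 and CXCL2 follow each other with only PF4V1, PF4 and PPBP between them among protein-coding genes. CCL2 and CCL15 lie on chromosome 17 and CCL20 on chromosome 2. Promoter sequences from RefSeq (GRCh38.p14) were at hand for 9 of the 10 genes, all but CCL2. The 120 bases upstream of the start site are shown for CXCL1 and CXCL2, which fell together in the results given next, and for CXCL3, CXCL8 and CCL20 for comparison, and capitals mark GGAATTTCC. This word has the form of a kappaB site and was found as the longest stretch of bases that the 250 bases upstream of CXCL1, CXCL2, CXCL3, CXCL5, CXCL6 and CXCL8 have in common, so its presence in these 6 follows from how it was chosen. The windows are chr4:73869273-73869392, plus strand, for CXCL1, chr4:74099196-74099315, minus strand, for CXCL2, chr4:74038690-74038809, minus strand, for CXCL3, chr4:73740449-73740568, plus strand, for CXCL8, and chr2:227813722-227813841, plus strand, for CCL20.
CXCL1: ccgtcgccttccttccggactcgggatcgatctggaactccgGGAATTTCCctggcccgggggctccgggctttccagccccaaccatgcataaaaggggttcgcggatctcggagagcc
CXCL2: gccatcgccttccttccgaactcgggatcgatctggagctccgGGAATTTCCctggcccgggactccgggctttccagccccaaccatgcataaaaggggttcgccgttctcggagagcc
CXCL3: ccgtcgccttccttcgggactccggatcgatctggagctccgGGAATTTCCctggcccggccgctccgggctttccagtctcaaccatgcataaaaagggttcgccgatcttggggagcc
CXCL8: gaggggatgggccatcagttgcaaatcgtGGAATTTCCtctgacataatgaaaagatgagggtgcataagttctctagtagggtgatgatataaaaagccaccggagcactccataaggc
CCL20: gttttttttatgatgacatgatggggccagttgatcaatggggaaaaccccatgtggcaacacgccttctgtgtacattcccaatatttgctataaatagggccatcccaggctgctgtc
Over the 250 bases upstream of the start, 145 of 35116 promoters (0.413%) held GGAATTTCC on either strand. Apart from the 6 promoters from which it was chosen, it was found in that of CXCL10, on the opposite strand, and not in those of CCL15 and CCL20. It began 78 bases before the start in CXCL1 and CXCL3, 77 in CXCL2 and 91 in CXCL8. A looser kappaB pattern, of 3 G, any 5 bases and 2 C, was present in 8 of 9 and in 54.4% of all promoters, on either strand. It enclosed the word in CXCL1, CXCL2, CXCL3, CXCL5, CXCL6 and CXCL10, whereas in CXCL8 it lay apart from the word. CCL20, without the word, held the looser pattern within the 120 bases shown, among other places at -81 to -72. Only CCL15 lacked both. In the 120 bases shown, CXCL1 was identical to CXCL2 at 93.4% and to CXCL3 at 90.8% of aligned positions. A match describes the letters only. CXCL1, CXCL2 and CXCL3 are near-identical paralogs, and the probe sequences were not at hand, so how far their probes share reads is uncertain.

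CXCL1 and CXCL2 fell with 7 of the 8 inhibitors, CCL20 rose with 5 of them, CCL15 fell with 6, and the CXCL8 level at C5 was not called different from that at C1 with any. Of the 11 features, 9 passed the filter on low counts in at least 1 chemical, which gave 68 results per comparison over the 8 chemicals. A feature was called when the Benjamini-Hochberg adjusted p of edgeR's quasi-likelihood test was under 0.05 and its fold change at least 1.5. Whether the libraries of compared groups overlapped is given as a description only, since the share of all features without overlap was not counted. At C5, 6 of the 68 chemokine results rose and 28 fell, where 11.6% of all results tested rose and 13.4% fell. By chemical, the shares of all features that rose and fell at C5 were 13.8% and 15% with apicidin, 14.8% and 15.7% with mocetinostat, 6.77% and 9.46% with panobinostat and 12.8% and 17% with scriptaid. They were 18.7% and 20.1% with tacedinaline, 0% and 0.0154% with trichostatin A, 4.84% and 6.22% with valproic acid and 22.7% and 24.9% with vorinostat. At C2 no chemokine was called in either direction (0.0659% and 0.0206% of all results). At C3, 3 rose and 19 fell, beside 2.82% and 3.16% of all results. At C4, 4 rose and 24 fell, beside 7.85% and 8.14%. The slope on log2 concentration over all 5 levels, called the trend and given as the fitted change from C1 to C5, called 8 rising and 27 falling results, beside 12.7% of all results in each direction. Without replicate 2 the C3 counts were 0 rising and 12 falling and the trend called 4 rising results. The plot of changes at the highest concentration shows how the features split.

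**Figure D1:**
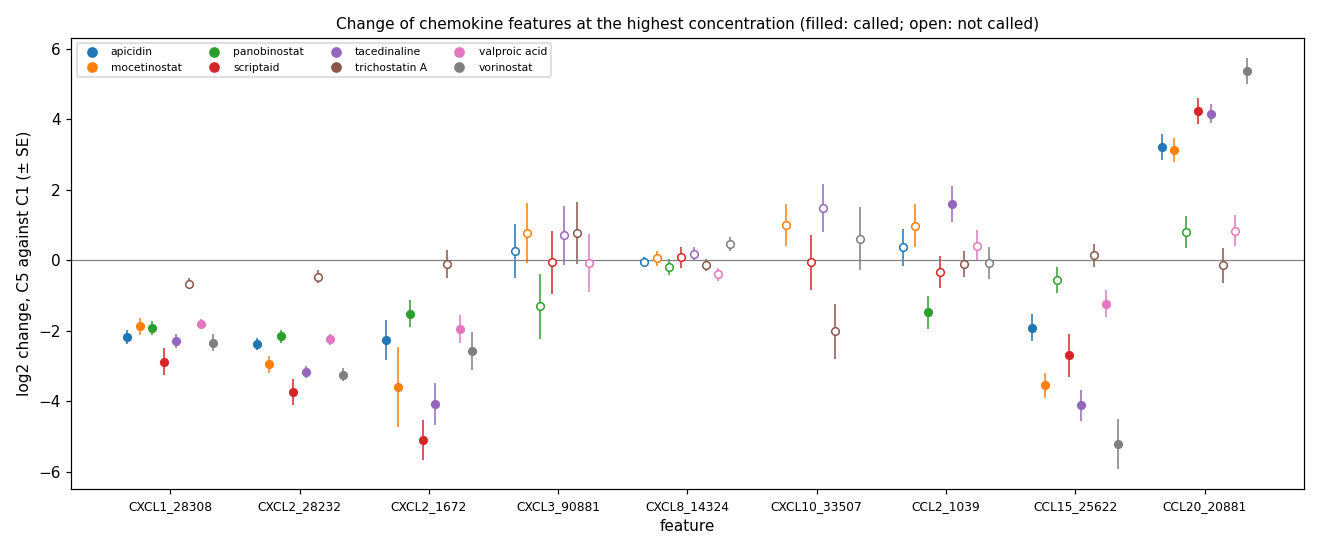
Log2 change at C5 against C1 (vertical axis) of the 9 chemokine features tested, 1 point per chemical with its standard error, filled where called and open where not. CXCL1 and CXCL2 lie below 0, CCL20 lies at 0.80 or above except with trichostatin A (-0.14), and CXCL8 stays between -0.40 and 0.47.

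CXCL1, a neutrophil chemokine, fell at C5 in all 7 inhibitors other than trichostatin A, by 3.49- to 7.33-fold. With apicidin its level was 262, 306 and 321 CPM in the 3 libraries at C1 and 81.8, 51.8 and 63.3 CPM at C5. With mocetinostat the corresponding levels were 343, 382 and 317 CPM and 112, 91.1 and 67.3 CPM. With panobinostat they were 329.5, 284 and 262 CPM and 84.3, 72.1 and 76.5 CPM. In these 3 chemicals every C5 library lay below every C1 library. With scriptaid the CXCL1 level went from 199, 204 and 179.7 CPM at C1 to 27.2, 35.8 and 13.0 CPM at C5. With tacedinaline it went from 231, 232 and 194 CPM to 47.5, 53.1 and 28.5 CPM. Again the groups did not overlap, and the third scriptaid C5 library was the lowest of all. With valproic acid CXCL1 stood at 217, 264 and 235 CPM at C1 and 74.3, 66.1 and 64.9 CPM at C5, and with vorinostat at 196, 245 and 203 CPM and 55.6, 31.4 and 35.1 CPM. The log2 changes ranged from -2.87 ± 0.39 (SE) with scriptaid to -1.80 ± 0.15 with valproic acid, and the largest of the 7 adjusted p-values (edgeR, Benjamini-Hochberg) was 2.50e-05, also with scriptaid.

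With trichostatin A, CXCL1 was 345, 409 and 338 CPM at C1 and 222, 214 and 242 CPM at C5. All C5 libraries lay below all C1 libraries, but the log2 change of -0.66 ± 0.16 was not called (edgeR adjusted p = 0.198). In this comparison only 0.0154% of all features were called in any direction. Without replicate 3 of C1, the log2 change of CXCL1 was -0.72 ± 0.15 and passed the test (edgeR adjusted p = 0.0180), with 0.163% of features then rising and 0.645% falling. DESeq2 called it with all libraries kept (adjusted p = 0.0141).

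CXCL2, the closest relative of CXCL1 in promoter sequence above, followed the same direction, and its stronger probe, CXCL2_28232, fell by 4.47- to 13.3-fold at C5 in the same 7 chemicals. The level of CXCL2_28232 was 630.1, 632 and 628 CPM at C1 and 135, 127 and 99.8 CPM at C5 with apicidin. It was 758, 819 and 717 CPM and 92.5, 108 and 81.4 CPM with mocetinostat. It was 765, 779.8 and 659 CPM and 203, 137 and 158 CPM with panobinostat. No C5 library reached any C1 library in these chemicals. Scriptaid took CXCL2_28232 from 498, 516 and 545 CPM to 41.6, 34.4 and 37.7 CPM, a log2 change of -3.73 ± 0.37 (edgeR adjusted p = 1.16e-06). Tacedinaline took it from 626, 541 and 540.4 CPM to 76.5, 62.1 and 45.4 CPM, a log2 change of -3.16 ± 0.17 (edgeR adjusted p = 3.23e-19). Both gave wide gaps between the groups. Under valproic acid the levels were 581, 617 and 567 CPM at C1 and 122, 144 and 109.6 CPM at C5, and under vorinostat 539, 665 and 602 CPM and 54.8, 59.9 and 62.6 CPM. With trichostatin A, CXCL2_28232 measured 847, 857 and 519 CPM at C1 and 565, 449.9 and 575 CPM at C5, so that the third C1 library was low and lay within the C5 values. The log2 change of -0.46 ± 0.18 was not called (edgeR adjusted p = 0.469), and without that library it was -0.67 ± 0.13 and was called (edgeR adjusted p = 0.0119).

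The other CXCL2 probe, CXCL2_1672, also fell at C5 in those 7 chemicals, at much lower counts. Its level with tacedinaline was 36.7, 21.2 and 22.1 CPM at C1 and 0, 3.45 and 0.412 CPM at C5, a log2 change of -4.08 ± 0.61 (edgeR adjusted p = 4.75e-07). Leaving out 1 batch moved this change to -3.35 (without replicate 1) or -6.68 (without replicate 2), and it kept its call. With scriptaid it was 35.3, 25.5 and 22.1 CPM at C1, and the 3 libraries at C5 held 3, 3 and 0 counts. Such a group lies at the floor of 3 counts per library, and against that floor CXCL2_1672 was at least 23.2-fold lower. Trichostatin A left it at 18.8, 21.8 and 29.0 CPM at C5 against 28.1, 40.1 and 7.77 CPM at C1, with overlapping groups and the lowest value again in the third C1 library. The call of CXCL2_1672 with panobinostat (-1.51 ± 0.39, edgeR adjusted p = 0.00942) was lost in the model of all libraries (adjusted p = 0.0951). Its trend with panobinostat (edgeR adjusted p = 0.0441) was lost with the HepaRG batch as a block (adjusted p = 0.0578). Leaving out 1 batch in turn ended the C5 call of this probe in 4 chemicals, namely apicidin, mocetinostat, panobinostat and valproic acid.

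**Figure D2:**
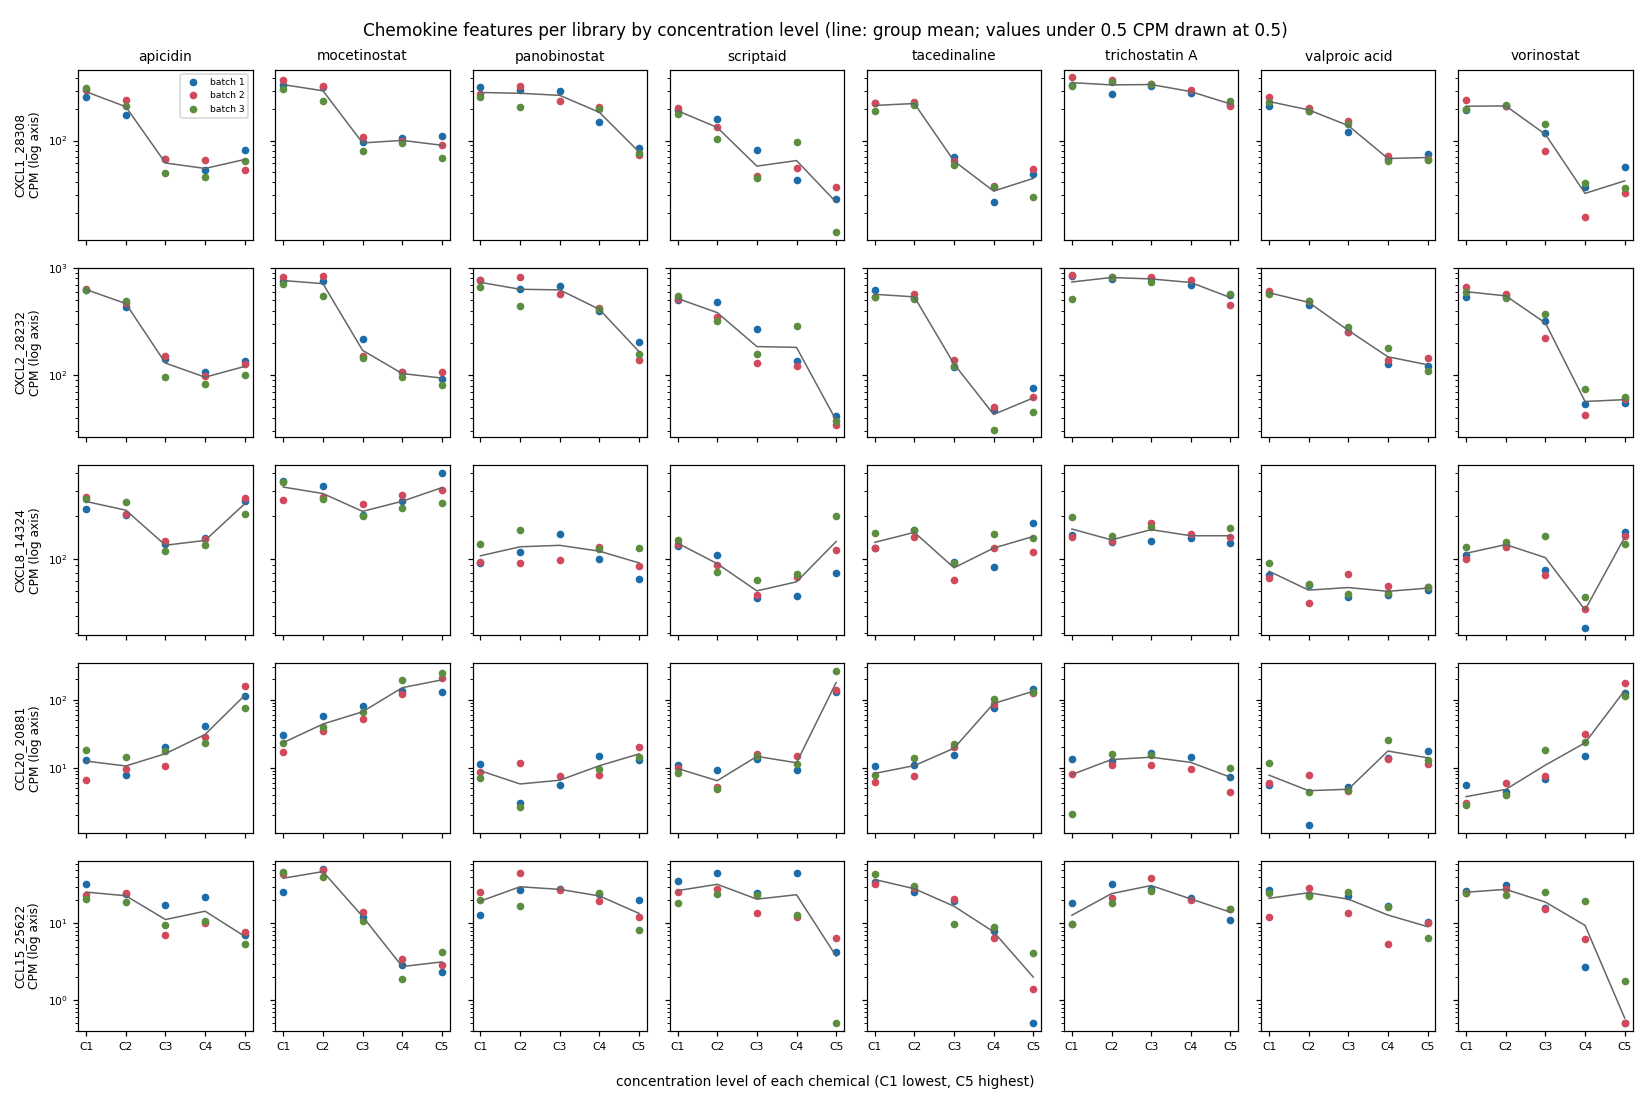
Level of 5 chemokine features in every library (CPM, log axis) at C1 to C5 of each chemical, coloured by HepaRG batch, with lines through group means and values under 0.5 CPM drawn at 0.5. The CXCL1 and CXCL2_28232 points drop between C2 and C4 in most panels, and the CCL20 points climb from C3, C4 or C5 with the 5 chemicals in which it was called. In the trichostatin A panels no feature was called in the main model, though all CXCL1 points at C5 lie below those at C1.

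The fall of CXCL1 and CXCL2_28232 appeared at C3 in 6 of the 7 chemicals. CXCL1 was called at C3, C4 and C5 with apicidin, mocetinostat, scriptaid, tacedinaline, valproic acid and vorinostat, and only at C5 with panobinostat. CXCL2_28232 was called at the same levels in the same 6 chemicals and from C4 with panobinostat. Apicidin, for example, gave CXCL2_28232 levels of 429, 474 and 494 CPM at C2, 143, 150.2 and 95.5 CPM at C3 and 106, 98.6 and 82.8 CPM at C4. Tacedinaline gave 523, 572 and 519 CPM, 120.0, 140.0 and 122 CPM and 47.6, 50.5 and 30.9 CPM. In both chemicals the C2 and C3 libraries were fully apart, and C5 was not called different from C4. A comparison of C5 with C4, added after the values had been seen, called 8 of 68 chemokine results rising and 8 falling, beside 1.88% and 3.84% of all results. CXCL1 fell further from C4 to C5 with panobinostat (-1.28 ± 0.19, edgeR adjusted p = 3.29e-04) and with scriptaid (-1.29 ± 0.38, edgeR adjusted p = 0.0184), and CXCL2_28232 fell with the same chemicals (-1.32 ± 0.19 and -2.24 ± 0.35). The CXCL1 call with scriptaid was lost without replicate 2 or replicate 3 (-0.56 without the latter), and over all chemokines 3 rising and 5 falling results were left without replicate 2. Replicate 3 includes the scriptaid C4 library with the low TMM factor.

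CXCL8, which attracts neutrophils as CXCL1 and CXCL2 do and carries the same kappaB-type word, was not called at C5 in any of the 8 chemicals. With apicidin, CXCL8 was 224, 274 and 262 CPM at C1, 127, 134 and 113 CPM at C3, 141, 138 and 126 CPM at C4 and 257, 269 and 208 CPM at C5. With vorinostat it was 107, 99.2 and 122 CPM at C1, 83.9, 77.6 and 145 CPM at C3, 32.9, 44.2 and 54.4 CPM at C4 and 154, 144 and 128 CPM at C5. The level thus dipped at a middle concentration and lay near or above its starting value at the highest. The dip was called with apicidin at C3 (-1.02 ± 0.15, edgeR adjusted p = 1.03e-04) and C4 (-0.89 ± 0.15, 2.41e-04). It was called with tacedinaline at C3 (-0.59 ± 0.19, edgeR adjusted p = 0.0293) and with vorinostat at C4 (-1.25 ± 0.21, edgeR adjusted p = 1.00e-05). From C4 to C5, CXCL8 rose with vorinostat (1.73 ± 0.21, edgeR adjusted p = 1.89e-07), apicidin (0.85 ± 0.15, 0.0175) and scriptaid (0.97 ± 0.30, 0.0235). Leaving out replicate 2 or 3 ended this call with apicidin, and leaving out replicate 1 or 2 ended it with scriptaid. Scriptaid libraries had CXCL8 at 124, 127 and 137 CPM at C1, 52.7, 55.5 and 70.7 CPM at C3 and 79.9, 116 and 202 CPM at C5, the last being widely spread. At C5 against C1 the largest CXCL8 change was that of vorinostat (0.47 ± 0.20, edgeR adjusted p = 0.0435), which lay under the fold of 1.5 although its C5 libraries were all above its C1 libraries. Without replicate 3 this change was 0.62 and was called (edgeR adjusted p = 0.0101). In valproic acid the CXCL8 libraries measured 77.7, 74.0 and 94.4 CPM at C1 and 60.2, 63.3 and 63.5 CPM at C5, without overlap, and the change of -0.40 ± 0.19 was not called (edgeR adjusted p = 0.202). Mocetinostat kept CXCL8 between 200.5 and 402 CPM over all 5 levels.

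**Figure D3:**
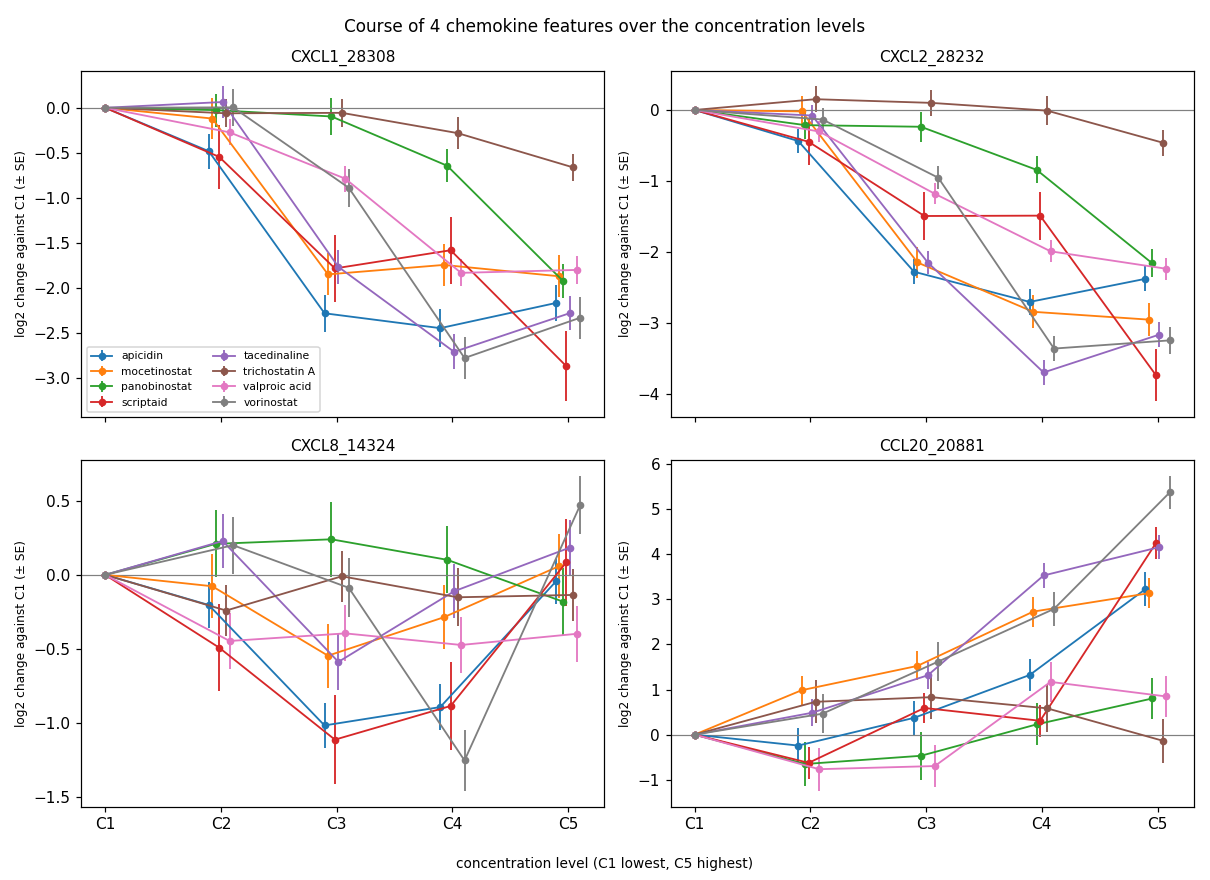
Log2 change against C1 with its standard error (vertical axis) at each concentration level for CXCL1_28308, CXCL2_28232, CXCL8_14324 and CCL20_20881, 1 line per chemical. CXCL1 and CXCL2_28232 fall from C3 on with 6 chemicals, later with panobinostat and without a call with trichostatin A, CXCL8 dips to as low as -1.25 at C4 with vorinostat and ends between -0.40 and 0.47, and CCL20 climbs to 5.37.

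The remaining neutrophil chemokines were scarce. CXCL3_90881 had 1067 counts over all 118 libraries and at most 26 in any library, was tested in 7 chemicals (not vorinostat), and was called in none at any level. Its log2 changes at C5 ran from -1.30 ± 0.92 with panobinostat to 0.78 ± 0.88 with trichostatin A. CXCL5_15735 had 82 counts in all, above 0 in 23 libraries, and CXCL6_15723 had 3 counts in 2 libraries, and neither passed the filter in any chemical. No change of CXCL5 or CXCL6 was therefore tested within a chemical.

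CXCL10, the interferon-induced member, was also low, with 1325 counts in all, and was tested in 5 chemicals (mocetinostat, scriptaid, tacedinaline, trichostatin A and vorinostat). Tacedinaline libraries had 5.00, 2.36 and 4.91 CPM at C1 and 9.00, 13.8 and 9.48 CPM at C5, without overlap. The change at C5 was 1.49 ± 0.67 and was not called (edgeR adjusted p = 0.0708), whereas the trend of 1.56 ± 0.57 was (edgeR adjusted p = 0.0273). That trend call was lost without replicate 2 (adjusted p = 0.196) and without replicate 3 (0.106). With vorinostat the CXCL10 libraries held 0, 0 and 6 counts at C4 and 0, 12 and 19 counts at C5, and the rise from C4 to C5 (2.99 ± 1.08, edgeR adjusted p = 0.0472) was lost without replicate 1 or replicate 2. Trichostatin A showed 3.79, 1.22 and 17.0 CPM at C1 and 1.85, 1.56 and 1.89 CPM at C5, where the library that stood apart set the C1 mean.

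CCL20, the CCR6 ligand, moved the opposite way from CXCL1 and CXCL2, rising at C5 with apicidin, mocetinostat, scriptaid, tacedinaline and vorinostat by 8.78- to 41.3-fold. With vorinostat the CCL20 level was 5.53, 3.01 and 2.80 CPM at C1 and 124, 176 and 112 CPM at C5 (5.37 ± 0.37, edgeR adjusted p = 4.87e-14). With tacedinaline it was 10.8, 6.20 and 7.86 CPM and 144, 125 and 133 CPM (4.15 ± 0.27, edgeR adjusted p = 1.10e-16). With scriptaid it was 11.1, 10.0 and 8.33 CPM and 131, 142 and 267 CPM (4.24 ± 0.36, edgeR adjusted p = 3.37e-07). All C5 libraries of these chemicals lay far above all C1 libraries. The level in apicidin libraries was 13.0, 6.62 and 18.1 CPM at C1 and 114, 159 and 76.9 CPM at C5 (3.22 ± 0.37, edgeR adjusted p = 1.51e-06), a change of 2.62 without replicate 2. Mocetinostat libraries had 30.5, 17.3 and 23.0 CPM and 131, 212 and 248 CPM (3.13 ± 0.34, edgeR adjusted p = 3.45e-06). Here too the groups were apart.

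CCL20 levels with panobinostat were 11.3, 8.75 and 7.22 CPM at C1 and 13.1, 20.4 and 14.6 CPM at C5, apart but close, and the change of 0.80 ± 0.46 was not called (edgeR adjusted p = 0.253). Valproic acid gave 5.58, 6.06 and 11.8 CPM and 17.5, 11.4 and 13.3 CPM, which overlapped, and only its trend was called (1.30 ± 0.45, edgeR adjusted p = 0.0461). That trend was lost without replicate 1 (adjusted p = 0.263) or replicate 2 (0.159). Trichostatin A gave 13.6, 8.26 and 2.09 CPM and 7.41, 4.41 and 10.1 CPM (-0.14 ± 0.49, edgeR adjusted p = 0.966), with overlap, and leaving out the third C1 library did not bring a call. The rise began at C3 with mocetinostat, tacedinaline and vorinostat, at C4 with apicidin and at C5 with scriptaid. In scriptaid libraries CCL20 was still 9.28, 14.9 and 11.5 CPM at C4, so that the step from C4 to C5 was 3.93 ± 0.36 (edgeR adjusted p = 2.59e-06). Vorinostat rose by 2.58 ± 0.30 over the same step (edgeR adjusted p = 7.81e-08), and apicidin by 1.90 ± 0.35 (adjusted p = 0.0175), a call lost without replicate 2 or 3.

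CCL15, a CCR1 ligand made by liver and gut epithelium, fell at C5 with apicidin, mocetinostat, scriptaid, tacedinaline, valproic acid and vorinostat. CCL15 counts with vorinostat were 48, 100 and 80 at C1 and 0, 0 and 3 at C5, in the group with the lowest library totals. At the floor of 3 counts per library this is a level at least 13.6-fold lower. Tacedinaline libraries had 35.0, 32.7 and 44.5 CPM at C1 and 0.500, 1.38 and 4.12 CPM at C5 (-4.12 ± 0.45, edgeR adjusted p = 4.45e-10), a change of -4.97 without replicate 3. Mocetinostat libraries had 26.0, 44.3 and 46.4 CPM and 2.35, 2.84 and 4.28 CPM (-3.55 ± 0.37, edgeR adjusted p = 2.28e-06). The groups were apart in each of these 3 chemicals. Scriptaid gave 36.3, 25.5 and 18.7 CPM at C1 and 4.25, 6.53 and 0.483 CPM at C5, and apicidin 33.0, 23.2 and 20.8 CPM and 7.10, 7.82 and 5.46 CPM, with log2 changes of -2.69 ± 0.61 (-3.44 without replicate 2) and -1.91 ± 0.38. With valproic acid the levels were 27.1, 12.1 and 24.6 CPM and 10.6, 10.2 and 6.49 CPM, apart by little, and the call (-1.23 ± 0.39, edgeR adjusted p = 0.0429) was lost in the model of all libraries (adjusted p = 0.0642) and without replicate 1 or 3. Panobinostat (12.8, 25.6 and 20.4 CPM at C1, 20.1, 12.3 and 8.25 CPM at C5) and trichostatin A (18.7, 9.79 and 9.87 CPM, 11.1, 15.6 and 15.4 CPM) gave overlapping groups and no call. The hepatocyte markers fell in the same 6 chemicals, in 9 to 11 of 11 features, and also with panobinostat, in 9 of 11, while with trichostatin A 0 of 11 fell. The annotation holds a readthrough transcript, CCL15-CCL14, and whether the CCL15 probe also reads it is unknown, since the probe sequence was not at hand.

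CCL2, the monocyte chemokine, was called in opposite directions. With tacedinaline it rose from 6.67, 6.49 and 7.37 CPM at C1 to 14.5, 31.7 and 13.6 CPM at C5 (1.60 ± 0.50, edgeR adjusted p = 0.00868), without overlap but with 1 C5 library far above the other two. With panobinostat it fell from 19.3, 9.81 and 15.1 CPM to 7.54, 6.25 and 2.20 CPM (-1.47 ± 0.47, edgeR adjusted p = 0.0340). The tacedinaline call was lost without replicate 2 (adjusted p = 0.231) and the panobinostat call without replicate 1 (0.116) or replicate 3 (0.305). With vorinostat CCL2 passed through a low point, as CXCL8 did, at 19.4, 15.8 and 20.2 CPM at C1, 3.43, 2.62 and 7.56 CPM at C4 and 10.6, 12.8 and 25.1 CPM at C5. The fall at C4 was -1.92 ± 0.49 (edgeR adjusted p = 0.00212) and the return from C4 to C5 1.85 ± 0.50 (adjusted p = 0.00794), the latter lost without replicate 2. Apart from tacedinaline and panobinostat, no chemical had CCL2 called at C5.

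Whether the change from C1 to C5 differed between the chemicals was tested in 1 model of all 118 libraries. The test asked for any difference among the 8 changes, and 30.3% of features differed in it. CXCL2_28232 (edgeR adjusted p = 1.72e-15), CCL20 (6.41e-15), CCL15 (8.62e-10), CXCL1 (2.06e-06), CXCL2_1672 (5.85e-04) and CCL2 (0.0239) differed. For CXCL8 the adjusted p was 0.525, for CXCL10 0.0803, for CXCL5 0.352 and for CXCL3 0.870. The difference for CCL2 was lost without each replicate in turn, with adjusted p-values of 0.0776, 0.315 and 0.173, and the other 5 held. Without the trichostatin A library that stood apart, the adjusted p-values were 9.20e-13 for CXCL2_28232, 5.05e-05 for CXCL1 and 0.0278 for CCL2. Concentrations were not matched, so this compares the ends of each chemical's own range. The libraries lay on 2 plates, and the test was repeated within each, after the values had been seen. On plate H, with apicidin, mocetinostat, panobinostat, trichostatin A and valproic acid, 23.4% of features differed, among them CXCL2_28232 (edgeR adjusted p = 1.63e-10), CCL15 (2.37e-06), CCL20 (9.05e-06), CXCL1 (1.24e-05) and CXCL2_1672 (0.0428), while CCL2 was at 0.0941. On plate E, with scriptaid, tacedinaline and vorinostat, 3.15% of features differed and no chemokine did, the lowest adjusted p being 0.198 for CCL2. Plate and chemical cannot be told apart in the comparison across plates.

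Across the 40 group means of log2 CPM, CXCL1 and CXCL2_28232 ran together (Pearson r = 0.97), and the CXCL2 probes did so at r = 0.88. CCL20 ran against CXCL2_28232 (r = -0.74) and had r = 0.43 with CXCL8. These are descriptions over groups that share libraries' depth and HepaRG batches. Outside the chemokines, and among features tested in all 8 chemicals, the patterns most like that of CCL20 were those of ODC1 (r = 0.92), which makes polyamines, PPARD (r = 0.91), a nuclear receptor, and YWHAG (r = 0.91), a 14-3-3 protein. Those most like CXCL8 were ADAM17 (r = 0.71), EXT1 (r = 0.69) and DNTTIP1 (r = 0.69), and those most like CCL2 were ING5 (r = 0.74), HUS1 (r = 0.72) and IPMK (r = 0.71).

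Genes that act upstream and downstream of the chemokines were described from lists by role, as counts of results called at C5 against C1 (11.6% of all results rose and 13.4% fell). Among NF-kappaB components, 27 of 168 results rose (16.1%) and 18 fell (10.7%). BIRC3, an inhibitor of apoptosis that is itself an NF-kappaB target, rose in 7 chemicals, with log2 changes up to 2.90 ± 0.16 with vorinostat, where its mean level was 394 ± 28.3 CPM at the lowest concentration (SD, n = 3) and 2746 ± 59.2 CPM at C5. NFKB1, which encodes the p50 precursor, fell in 6 chemicals, from 32.2 ± 4.39 to 6.82 ± 3.17 CPM with mocetinostat (-2.16 ± 0.41, edgeR adjusted p = 7.99e-04). BCL3, a nuclear protein that binds p50, fell in 6 as well, by as much as -2.99 ± 0.31 with mocetinostat. Members of this list thus moved in both directions.

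Receptors and adaptors that switch on chemokine genes fell more often than they rose, with 37 of 137 results falling (27%) and 3 rising (2.19%). IL6R, the interleukin-6 receptor, fell in 7 chemicals, from 172 ± 48.7 CPM to 13.1 ± 5.41 CPM with mocetinostat. TLR3, a sensor of double-stranded RNA, and IL17RC, a subunit of the interleukin-17 receptor, each fell in 6. The interferon-induced GTPase genes GBP1 and GBP2 fell in 7 and 6 chemicals. GBP1 stood at 119 ± 11.7 CPM at C1 and 19.3 ± 12.7 CPM at C5 with scriptaid. Among cytokines of the same response, 6 of 56 results rose and 21 fell, and TNFSF10, the death ligand TRAIL, fell in 7 chemicals, from 39.4 ± 7.37 to 1.46 ± 0.623 CPM with tacedinaline. Other chemokines gave 41 results, of which 3 rose and 15 fell. CX3CL1, the membrane-bound chemokine fractalkine, fell in 6 chemicals, from 74.7 ± 9.13 to 4.71 ± 2.60 CPM with vorinostat.

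Only 2 of 22 chemokine receptor features could be tested. CCR4, a receptor of CCL17 and CCL22, rose in 6 of the 7 chemicals in which it was tested, from 0.458 ± 0.326 to 13.4 ± 5.88 CPM with tacedinaline, though its levels were low. Its mean level at C1 lay between 0.0957 and 0.946 CPM, so it passed the filter only through groups where it was higher. The count of rises therefore follows in part from the filter. With trichostatin A, where CCR4 was not tested, it was 0.946 ± 1.27 CPM at C1 and 1.08 ± 0.643 CPM at C5. ACKR3, a scavenging receptor, fell in 4. The receptors of the members described above, CXCR2 included, did not pass the filter. Regulators of transcript decay rose in 9 and fell in 6 of 64 results. Over all 7 lists 69 results rose and 134 fell, and without replicate 2 only 37 rose. By list, 2.19% to 40% of results rose and 9.38% to 37.5% fell, beside 11.6% and 13.4% of all results. The 40% was that of the chemokine receptors, which gave only 15 results. With trichostatin A none of the pathway features named here was called, CCR4 not being tested, and 0.0154% of all features were called in that comparison.

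**Figure D4:**
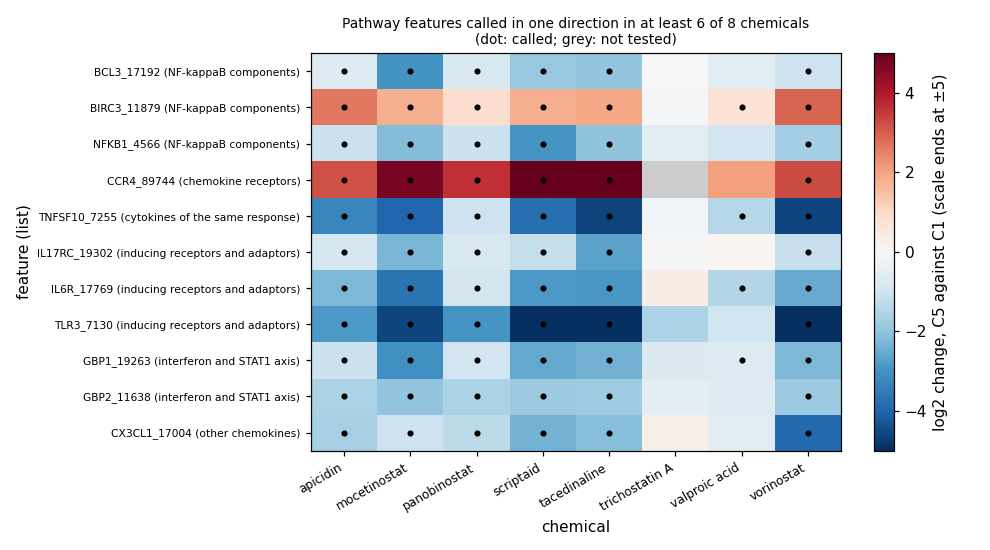
Log2 change at C5 against C1 (colour, scale ends at -5 and 5) of the pathway features called in the same direction in at least 6 chemicals, by chemical, with a dot where called and grey where not tested. BIRC3 and CCR4 are the rows that rise, the other 9 fall, and the trichostatin A column holds no dot.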

How the data were processed

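TempO-Seq whole transcriptome libraries of HepaRG cells were analysed from the count table. The authors deposited raw read counts per detector probe, as whole numbers without normalisation. Per the submitters' processing notes, bcl2fastq 2.20.422, fastp 0.23.2, STAR 2.7.10b and DESeq2 1.38.0 were used. Their roles and settings, the genome build and the probe annotation are not given in the sources used here. Of 22069 rows, 22068 were complete, and the last row, a SEC13 probe lacking 88 values, was left out. The published methods read for style describe another experiment and supplied no value.

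For every chemical a model of its own was made with edgeR 4.0.16 in R 4.3.3 (filterByExpr, TMM scaling, quasi-likelihood F tests), in which C2 to C5 were compared with C1 and a slope on log2 concentration was tested. P-values were adjusted by Benjamini-Hochberg over all features tested in a comparison, and a result was called at an adjusted p under 0.05 when the fold also reached 1.5. A standard error was obtained from a log2 change and its F statistic, as the size of the change over the root of F. A group with at most 3 counts in every library was treated as lying at the floor, a limit for counting error alone, because without molecular identifiers reads do not stand for single molecules. The test between chemicals used a model of all 118 libraries. Scripts were tested on simulated data.

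Replicate numbers mark the HepaRG batch in the labels and so pair the samples. As a check, departures of libraries from their group's mean were correlated, with a median r of 0.0361 over 232 pairs sharing a batch and -0.0146 over 464 pairs that did not. The main model had no batch block. Nothing in the labels says that each library was a separate culture beyond its batch, so p-values measure the spread between these libraries. Alternatives were DESeq2 1.42.0, other size factors, no filter on low counts, the replicate block, the adjusted p alone, a model of all libraries and leaving out each replicate. The C5 against C4 comparison, the test within plates and the fit without replicate 3 of trichostatin A C1 were chosen after seeing the data.

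The members and all gene lists were chosen with earlier results of these data known. Named genes were all member rows, pathway features called at C5 in the same direction in at least 6 of 8 chemicals, and the 3 features most correlated with CXCL8, CCL2 and CCL20 over 40 group means. CXCL10 was not tested in all 8 chemicals, so none was sought for it. ACKR3 falls outside these rules and was named after its values were seen. The count of 1 pathway list is not reported here.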

Additional observations from a re-analysis of the deposited data

Results flagged for a closer look

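The change from C1 to C5 differed between the 8 chemicals for 6 chemokine features in the edgeR test of the difference itself, which 30.3% of all features passed. CXCL2_28232 (Benjamini-Hochberg adjusted p = 1.72e-15) and CXCL1_28308 (2.06e-06) fell with 7 chemicals and were not called with trichostatin A. CCL20_20881 (6.41e-15) had log2 changes from -0.14 with trichostatin A to 5.37 with vorinostat. CCL15_25622 (8.62e-10) had log2 changes from -5.20 with vorinostat, where it lay at the floor (-8.87 to -4.49 on leaving out 1 replicate), to 0.14 with trichostatin A. CXCL2_1672 (adjusted p = 5.85e-04) fell most with scriptaid, where it too lay at the floor. CCL2_1039 (adjusted p = 0.0239) rose with tacedinaline and fell with panobinostat, and its difference was lost when any replicate was left out. Within plate E, where 3.15% of all features differed, none of the 6 did. Within plate H, where 23.4% of all features differed, all but CCL2 did. The cause of these differences was not tested.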

How the results depend on the processing

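Of 204 chemokine results (C5 against C1, C5 against C4 and trend), none changed direction while called, under any alternative. All 204 kept their call with RLE size factors and without the filter on low counts. The replicate block ended 1 call, the CXCL2_1672 trend with panobinostat, and left the C5 counts at 6 rising and 28 falling. The model of all libraries ended 2 calls (CXCL2_1672 with panobinostat, CCL15 with valproic acid). DESeq2 added 3 calls (CXCL1 with trichostatin A at C5 and by trend, and the CXCL10 trend with mocetinostat) and ended none, and it gave no adjusted p for 5 results, the CCL20 trend with scriptaid among them. The adjusted p alone added CXCL8 with vorinostat. Without replicate 3 of trichostatin A C1, chosen after seeing the data, CXCL1 and CXCL2_28232 were added at C5 and by trend, giving 30 and 29 falling results.

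Leaving out each replicate in turn ended 12 to 16 of these calls. The counts ranged over 0 to 2 falling at C2, 0 to 3 rising and 12 to 17 falling at C3, 4 to 7 rising by trend, 3 to 6 rising and 5 to 7 falling from C4 to C5, and 37 to 57 rising in the pathway lists. Besides those named in the report, calls lost were the trends of CXCL2_28232 and CCL20 with scriptaid (without replicate 2), CCL15 with valproic acid (without any of the 3), CCL2 with panobinostat (1 or 3) and tacedinaline (2), and CXCL2_1672 with mocetinostat (3) and panobinostat (1 or 3). From C4 to C5 they were the falls of CXCL2_1672 with scriptaid (1 or 2), CCL15 with scriptaid (1) and CCL15 with tacedinaline (1 or 2). With fewer libraries in each group the test has fewer degrees of freedom. CXCL5 and CXCL6 had too few counts to pass the filter within any chemical, and vorinostat C5, with the lowest totals, limits CCL15 to a bound.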
